A study of Mus musculus with 4 samples.

Results

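A set of 9 genes of steroid and metabolic nuclear receptor signalling was followed in group 2 innate lymphoid cells (ILC2s), tissue-resident lymphocytes that make type 2 cytokines and carry no antigen receptor. The 9 genes were taken by symbol from a table of 22083 genes, and all 9 were found there. They comprise 7 receptor genes (Nr3c1, Esr1, Vdr, Pparg, Ppard, Nr1h2 and Nr1h3) and 2 genes that glucocorticoids are known to induce (Fkbp5 and Tsc22d3). The cells came from small-intestinal lamina propria (SI-ILC2s, 2 libraries) and from the white fat of the mesentery (WAT-ILC2s, 2 libraries). Both groups came from WT C57BL/6 mice aged 9 weeks, and the labels name no treatment, transgene or mutant allele for either. Values are RPKM, that is reads scaled to gene length and to library size, so levels of different genes can be set side by side per length.

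Nuclear receptors are transcription factors that are switched by small lipid-soluble ligands. The glucocorticoid receptor, encoded by Nr3c1, waits in the cytoplasm in a complex with HSP90 chaperones and moves to the nucleus when it binds cortisol or corticosterone. The peroxisome proliferator-activated receptors (Pparg, Ppard), the liver X receptors for oxysterols (Nr1h2, Nr1h3) and the vitamin D receptor (Vdr) bind DNA as heterodimers with a retinoid X receptor (RXR). In ILC2s, PPAR-gamma is known as a regulator of lipid uptake and type 2 cytokine output, and glucocorticoids are known to restrain type 2 inflammation.

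Pparg and Tsc22d3 were the members that passed the test of a difference between the tissues, and each has 3 annotated starts that a gene-level RPKM merges. Promoter windows of 300 bases (250 before and 50 after a start, RefSeq, GRCm38.p6) were matched by symbol for 8 of the 9 members, Nr3c1 being without an entry, and gave 14 windows. They were searched on both strands for the palindromic glucocorticoid response element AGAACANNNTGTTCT, for its 6-letter core AGAACA, for direct repeats of AGGTCA spaced by 1 base (AGGTCANAGGTCA, the PPAR type) or 4 bases (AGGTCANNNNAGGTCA, the liver X receptor type), and for the 6-letter core AGGTCA, which is contained in both repeats, as the glucocorticoid core is in the palindrome. None of the 3 long motifs was found in the 14 windows; they occur in 0.00913%, 0.0396% and 0.0152% of all 32851 windows. The glucocorticoid core occurred in 1 member window, that of the most upstream start of Tsc22d3, against 19% of all windows. The AGGTCA core occurred in 2 member windows, both of Pparg, against 16.3% of all windows. These 3 windows are shown 5′ to 3′ because they belong to the genes that differed, with the core in capitals. In Tsc22d3 the core starts at position -185 relative to the annotated start and is read on the opposite strand (TGTTCT), and in Pparg it starts at positions -28 and -9.
Tsc22d3, chrX:140600473-140600772, minus strand: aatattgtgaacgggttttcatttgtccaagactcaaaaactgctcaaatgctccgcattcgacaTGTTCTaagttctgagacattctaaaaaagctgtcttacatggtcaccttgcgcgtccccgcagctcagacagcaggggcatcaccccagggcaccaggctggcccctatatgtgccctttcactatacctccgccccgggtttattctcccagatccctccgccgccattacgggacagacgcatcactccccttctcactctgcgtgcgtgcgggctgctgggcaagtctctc
Pparg, chr6:115360894-115361193, plus strand: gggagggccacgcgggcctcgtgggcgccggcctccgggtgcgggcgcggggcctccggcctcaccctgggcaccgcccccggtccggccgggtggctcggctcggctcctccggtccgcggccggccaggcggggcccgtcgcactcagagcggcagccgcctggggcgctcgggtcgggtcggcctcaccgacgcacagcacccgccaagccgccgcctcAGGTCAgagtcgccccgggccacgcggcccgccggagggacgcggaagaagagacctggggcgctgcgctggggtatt
Pparg, chr6:115362099-115362398, plus strand: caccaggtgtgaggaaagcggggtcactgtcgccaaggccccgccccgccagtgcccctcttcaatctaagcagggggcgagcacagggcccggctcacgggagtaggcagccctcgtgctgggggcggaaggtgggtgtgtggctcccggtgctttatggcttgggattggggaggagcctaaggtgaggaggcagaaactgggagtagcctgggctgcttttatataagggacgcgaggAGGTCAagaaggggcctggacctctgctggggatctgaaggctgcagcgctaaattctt
A match is a description of the letters only.

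The libraries had 55900000 to 76100000 reads, an estimate from the smallest steps between values of genes with 1 exon. ILC2 genes were abundant in each library, with the lineage factor gene Gata3 at 354 and 377 RPKM in SI-ILC2s, against 338 and 397 RPKM in WAT-ILC2s. Other ILC2 genes differed. In the limma test described below, 6 of 12 listed ILC2 genes were higher in SI-ILC2s (50%, against 17.9% of all tested genes). Another 2 were higher in WAT-ILC2s (16.7%, against 29.6%). Il17rb had 164 and 141 RPKM in SI-ILC2s, against 14.3 and 10.3 RPKM in WAT-ILC2s. Il1rl1 had 14.3 and 15.4 RPKM in SI-ILC2s, against 65.7 and 63.4 RPKM in WAT-ILC2s. Among 7 T cell genes, whose sum was 6.82 to 8.58 RPKM in SI-ILC2s and 12.4 to 23.2 RPKM in WAT-ILC2s, Cd3d, Cd4 and Cd8a stayed at or below 0.211 RPKM. Cd3g, of the same list, had 7.07 and 4.94 RPKM in SI-ILC2s, against 21.2 and 10.8 RPKM in WAT-ILC2s (adjusted p = 0.02). Red cell genes were present in each library, with a summed level of 13.2 to 41.6 RPKM in SI-ILC2s and 88.9 to 140 RPKM in WAT-ILC2s. Whether a tissue was sampled from separate mice is not in the labels, so p-values here reflect spread between libraries and not between known animals, and that spread may be technical. The limma fit also draws part of each gene's variance estimate from the other tested genes. Each change is the SI-ILC2 mean less the WAT-ILC2 mean of log2(RPKM + 1), a scale that compresses changes of low genes, and was tested with limma over the 8230 genes that reached 1 RPKM in at least 2 libraries, with Benjamini-Hochberg adjustment over all of them. Genes that passed at 0.05 are called SI-high (1470 genes, 17.9%) or WAT-high (2436 genes, 29.6%). A gene that reached 1 RPKM only in the libraries of 1 tissue entered the test through that tissue. The direction of its change was then fixed by the filter. Median-of-ratios scaling gave 1956 SI-high and 1817 WAT-high genes. The numbers were 1771 and 1883 with quantile normalization and 1105 and 2842 after rescaling to equal sums, and the median change of all tested genes was -0.15, 0.00, -0.02 and -0.33 under the 4 scalings in this order. Without SI-ILC2 replicate 1 the counts were 745 and 1439, and without SI-ILC2 replicate 2 they were 768 and 1813. In this design, a difference between the tissues and a difference in how cells were isolated from them cannot be told apart, and neither can a change in all cells and a change in the share of some of them.

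The 9 members spanned a wide range of levels, in nearly the same order in both tissues (plot of the 9 genes by library). Tsc22d3 was the most abundant, followed by Nr3c1, Nr1h2 and Pparg, then Fkbp5 and Ppard, and last by Nr1h3, Vdr and Esr1. Nr3c1 lay above Nr1h2 and Pparg in SI-ILC2s with no overlap of the libraries, whereas in WAT-ILC2s the Nr3c1 range of 31.8 to 36.6 RPKM overlapped the Nr1h2 range of 27.8 to 32.4 RPKM, which in turn overlapped the Pparg range of 27.3 to 28.5 RPKM. Nr1h3, Vdr and Esr1 overlapped each other in SI-ILC2s. In WAT-ILC2s Nr1h3 and Vdr overlapped and Esr1, at 0.0517 and 0.0819 RPKM, lay just under the lower Vdr library at 0.0826 RPKM. Of the 9 members, 5 passed the filter on low values (Nr3c1, Nr1h2, Pparg, Fkbp5 and Tsc22d3) and 4 did not (Ppard, Nr1h3, Vdr and Esr1). Among the 5 tested members 0 were SI-high with limma, also at an unadjusted p under 0.05, where the share of all tested genes was 17.9%, and 2 were WAT-high, where it was 29.6%. Both WAT-ILC2 libraries lay above both SI-ILC2 libraries for 3 of the 5, against 45.9% of all tested genes, and the reverse held for 0 of the 5, against 29.8%.

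**Figure D1:**
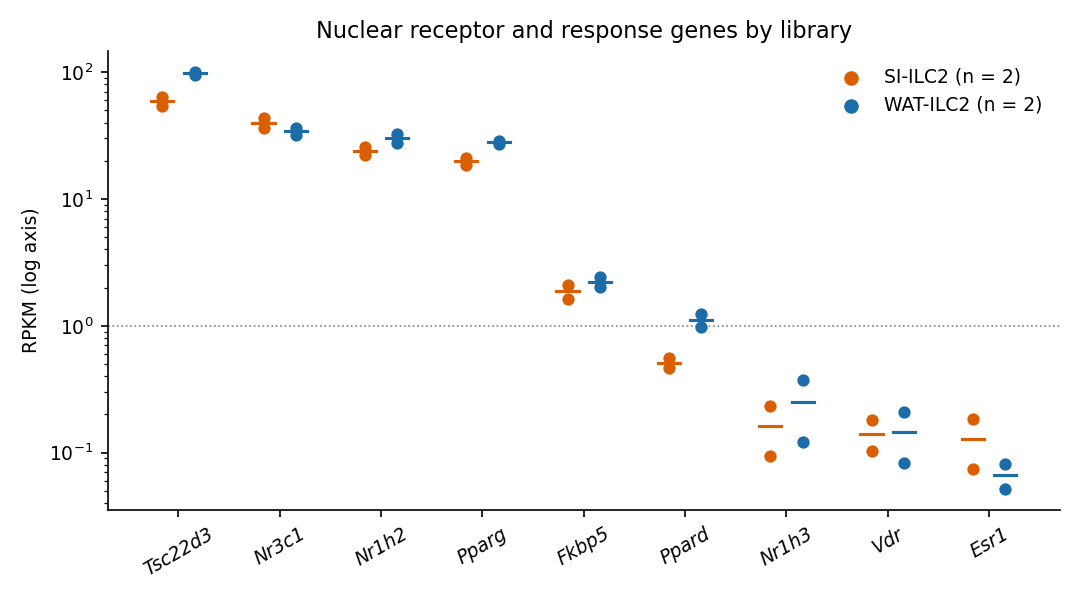
Level of each of the 9 genes in RPKM (log axis) in every library, with SI-ILC2 libraries in orange and WAT-ILC2 libraries in blue (n = 2 each), bars at the mean, and a dotted line at 1 RPKM, the level of the filter. Tsc22d3, Nr3c1, Nr1h2 and Pparg lie at or above 18.5 RPKM in every library, and Nr1h3, Vdr and Esr1 at or below 0.376 RPKM.

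The glucocorticoid receptor gene was expressed in ILC2s of both tissues, and its level did not pass the test of a difference. Nr3c1 (chromosome 18, 39410545 to 39519421, minus strand) had 36.4 and 43.2 RPKM in SI-ILC2s, against 31.8 and 36.6 RPKM in WAT-ILC2s. The groups overlap, since the lower SI-ILC2 library lies just under the higher WAT-ILC2 library. The change was 0.21 ± 0.16 (SE), with a 95% interval of -0.17 to 0.60 and an adjusted p of 0.31. A limma fit with a replicate block gave an adjusted p of 0.036, but the labels do not say that same-numbered libraries are paired. Nr3c1 was the most abundant of the 7 member receptors in each library. It held rank 503 to 592 in SI-ILC2s and rank 582 to 675 in WAT-ILC2s among the 22083 genes. Nr3c2, the gene of the mineralocorticoid receptor, which also binds corticosterone, had 0.327 and 0.304 RPKM in SI-ILC2s, against 0.382 and 0.371 RPKM in WAT-ILC2s, under the filter.

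Of the genes that glucocorticoids are known to induce, Tsc22d3 differed between the tissues and Fkbp5 did not pass the test. Tsc22d3 (chromosome X, 140539528 to 140600659, minus strand) encodes GILZ, a leucine zipper protein that binds and inhibits NF-kappaB and AP-1. It had 64.2 and 53.7 RPKM in SI-ILC2s, against 101 and 95.8 RPKM in WAT-ILC2s. Both WAT-ILC2 libraries are higher, and the groups do not overlap. SI-ILC2s averaged 59 ± 7.42 RPKM and WAT-ILC2s 98.3 ± 3.41 RPKM (SD, n = 2 each), a ratio of 0.6 and a log2 change of -0.73 ± 0.16 (SE, limma adjusted p = 0.011). The call was lost without SI-ILC2 replicate 2, the lower of that pair (log2 change -0.61). With no library left out and no block, the limma adjusted p ranged from 0.0048 to 0.042 over the alternatives. The replicate block gave 5.3e-09, a value that rests on a pairing the labels do not state.

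Fkbp5 (chromosome 17, 28399094 to 28517527, minus strand) encodes FKBP51, an HSP90 co-chaperone that lowers the affinity of the glucocorticoid receptor for its ligand and is itself induced by the receptor. It had 2.1 and 1.63 RPKM in SI-ILC2s, against 2.42 and 2.01 RPKM in WAT-ILC2s. The groups overlap, and the change was -0.17 ± 0.15 (SE), with a 95% interval of -0.54 to 0.21 and an adjusted p of 0.4. Fkbp4, which encodes the related co-chaperone FKBP52 that favours receptor transport, had 15.7 and 16 RPKM in SI-ILC2s, against 17.7 and 19.4 RPKM in WAT-ILC2s (adjusted p = 0.23). The ratio of Fkbp4 to Fkbp5, which a single scaling factor per library cannot alter, was 8.63 ± 1.63 in SI-ILC2s and 8.49 ± 1.65 in WAT-ILC2s (SD, n = 2 each), a difference smaller than the spread within a tissue. The ratio of Tsc22d3 to Nr3c1 was 1.76 and 1.24 in SI-ILC2s, against 3.17 and 2.62 in WAT-ILC2s, with no overlap. These ratios were not tested.

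A wider list of 20 glucocorticoid-induced genes, without Fkbp5 and Tsc22d3, held 11 tested genes. Of these 0 were SI-high with limma, also at an unadjusted p under 0.05, against 17.9% of all tested genes. WAT-high genes numbered 7 (63.6%, against 29.6%), and 4 genes did not pass the test. The median change of the list was -1.12, beside -0.15 over all tested genes. This list was chosen with earlier results of these data known, so its share and median are descriptive only. Anxa1, which encodes the anti-inflammatory protein annexin A1, had 1.1 and 1.11 RPKM in SI-ILC2s, against 39.8 and 30.2 RPKM in WAT-ILC2s (log2 change -4.08, adjusted p = 1.3e-04). Sgk1, a serum- and glucocorticoid-induced kinase gene, had 22.9 and 18.3 RPKM in SI-ILC2s, against 78.4 and 67.5 RPKM in WAT-ILC2s (log2 change -1.78, adjusted p = 7.4e-04). The libraries of the tissues lie far apart for both genes.

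The chemokine receptor gene Cxcr4 had 19.8 and 16.9 RPKM in SI-ILC2s, against 59.7 and 46.3 RPKM in WAT-ILC2s (log2 change -1.48, adjusted p = 0.0015). Dusp1, a phosphatase gene that shuts off MAP kinases, Cebpb, Txnip and Il7r were the other genes of the list that were higher in WAT-ILC2s. Per1, a clock gene with a well-known glucocorticoid response element, had 6.64 and 7.7 RPKM in SI-ILC2s, against 5.78 and 7.03 RPKM in WAT-ILC2s (adjusted p = 0.49). Klf9, another receptor target, had 1.67 and 1.88 RPKM in SI-ILC2s, against 1.21 and 1.9 RPKM in WAT-ILC2s (adjusted p = 0.55). The libraries of the tissues overlap for both genes, as they do for Fkbp5 and for Nfkbia. Errfi1, which encodes an inhibitor of EGF receptor signalling, had 20.8 and 24.1 RPKM in SI-ILC2s, against 14.3 and 19 RPKM in WAT-ILC2s (adjusted p = 0.095), so it did not pass the test although both SI-ILC2 libraries are higher. The metallothionein genes Mt1 and Mt2 were under the filter and likewise higher in both SI-ILC2 libraries. Mt1 had 1.26 and 0.805 RPKM in SI-ILC2s, against 0.399 and 0.45 RPKM in WAT-ILC2s. Mt2 had 1.13 and 0.842 RPKM in SI-ILC2s, against 0.162 and 0.0819 RPKM in WAT-ILC2s. Many genes of the list are also induced by cytokines, growth factors or cell stress. Cebpb, Dusp1 and Txnip share exon bases with a gene on the opposite strand. Without WAT-ILC2 replicate 2, 1 gene was SI-high and 8 were WAT-high.

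Among 13 genes of the chaperone complex that holds the receptor, 1 was SI-high (7.69%, against 17.9% of all tested genes). Another 2 were WAT-high (15.4%, against 29.6%) and 10 did not pass the test, with a list median of 0.08. Hsp90aa1, the inducible HSP90 gene, had 257 and 248 RPKM in SI-ILC2s, against 106 and 130 RPKM in WAT-ILC2s (log2 change 1.10, adjusted p = 0.0038). Hsp90ab1, its constitutive partner, had 809 and 804 RPKM in SI-ILC2s, against 762 and 759 RPKM in WAT-ILC2s (adjusted p = 0.74). Hspa4, an HSP110 family gene, had 51.1 and 62.8 RPKM in SI-ILC2s, against 124 and 152 RPKM in WAT-ILC2s (log2 change -1.26, adjusted p = 0.0028). The other gene higher in WAT-ILC2s was Stub1, a ubiquitin ligase gene that shares exon bases with Jmjd8 on the opposite strand. With median-of-ratios scaling 5 chaperone genes were SI-high and 2 WAT-high, and the counts were 1 and 1 without SI-ILC2 replicate 1 and 2 and 2 without WAT-ILC2 replicate 2.

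Genes that make or inactivate steroid ligands were mostly low. Of 14 such genes found, 7 were tested, with a median change of -0.36. Of the tested genes 0 were SI-high, also at an unadjusted p under 0.05 in limma, against 17.9% of all tested genes. WAT-high genes numbered 3 (42.9%, against 29.6%). Hsd11b1, which encodes the enzyme that regenerates active corticosterone from its inert form, had 0.589 and 0.702 RPKM in SI-ILC2s, against 3.72 and 2.55 RPKM in WAT-ILC2s (log2 change -1.32, adjusted p = 0.0019). Hsd11b1 entered the test only through the WAT-ILC2 libraries. Hsd11b2, the gene of the enzyme that inactivates corticosterone, had 1.27 and 1.36 RPKM in SI-ILC2s, against 1.52 and 2.5 RPKM in WAT-ILC2s (adjusted p = 0.15). Cyp11a1, the side-chain cleavage enzyme that opens steroid synthesis, stayed under the filter with 0.586 and 0.374 RPKM in SI-ILC2s, against 0.0737 and 0.147 RPKM in WAT-ILC2s. Without WAT-ILC2 replicate 2, 1 gene of this list was higher in WAT-ILC2s.

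**Figure D2:**
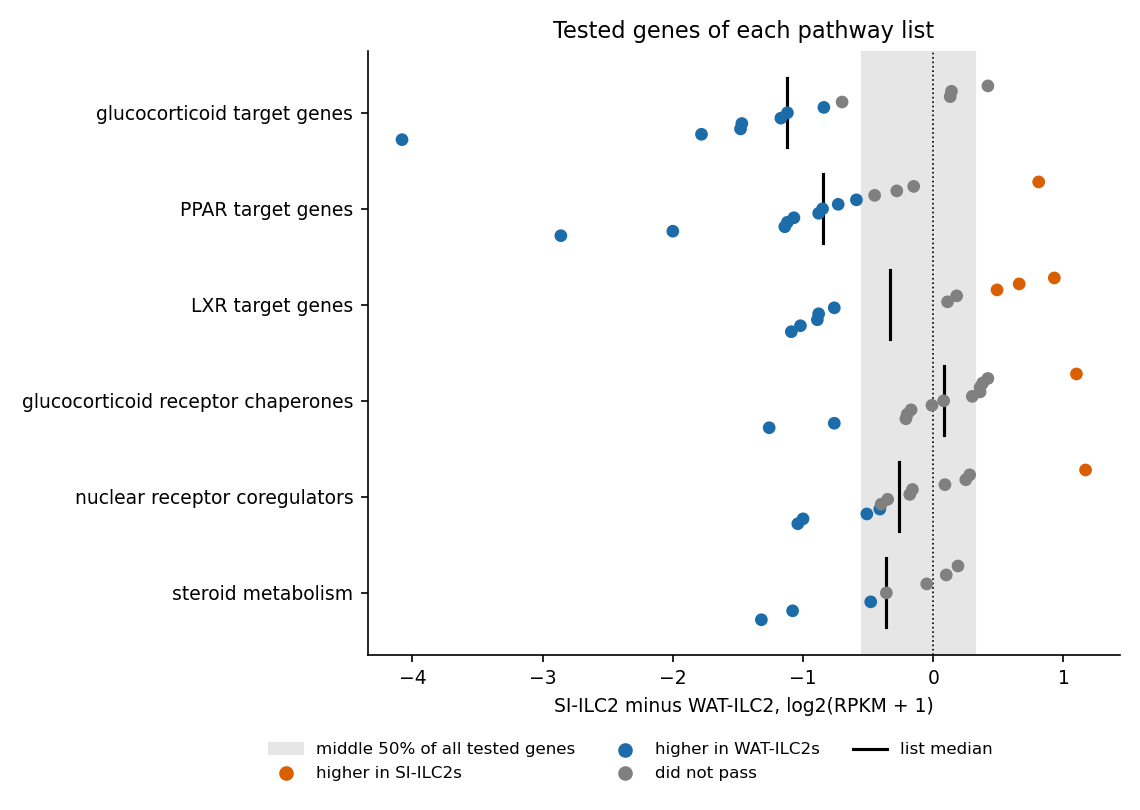
Log2 change (SI-ILC2 minus WAT-ILC2, log2(RPKM + 1)) of each tested gene in 6 pathway lists, coloured by whether it was higher in SI-ILC2s (orange), higher in WAT-ILC2s (blue) or did not pass the test (grey), with black bars at the list medians and a grey band over the middle 50% of all tested genes (-0.55 to 0.32). Medians lie at -1.12 for glucocorticoid targets, -0.85 for PPAR targets and -0.33 for LXR targets.

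Pparg was the dominant PPAR gene in ILC2s of both tissues and was lower in SI-ILC2s. Pparg (chromosome 6, 115360951 to 115490399, plus strand) encodes the fatty acid receptor best known from adipocytes and had 21.2 and 18.5 RPKM in SI-ILC2s, against 27.3 and 28.5 RPKM in WAT-ILC2s. Both WAT-ILC2 libraries are higher and close to each other. SI-ILC2s averaged 19.8 ± 1.87 RPKM and WAT-ILC2s 27.9 ± 0.855 RPKM (SD, n = 2 each), a ratio of 0.711 and a log2 change of -0.48 ± 0.14 (SE, limma adjusted p = 0.034). The call was lost with median-of-ratios scaling (log2 change -0.29, adjusted p = 0.16) and with no filter on low values (adjusted p = 0.074). It was also lost without SI-ILC2 replicate 1, SI-ILC2 replicate 2, WAT-ILC2 replicate 1 and WAT-ILC2 replicate 2, with adjusted p-values of 0.11, 0.24, 0.051 and 0.089 in this order.

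Ppard (chromosome 17, 28232700 to 28301474, plus strand), the gene of the broadly expressed receptor PPAR-delta, had 0.559 and 0.466 RPKM in SI-ILC2s, against 0.976 and 1.23 RPKM in WAT-ILC2s. The WAT-ILC2 libraries are higher and the groups do not overlap, but a single library reached 1 RPKM, so Ppard was not tested. With no filter on low values its log2 change of -0.47 had an adjusted p of 0.078, and with a pseudocount of 0.1 the change was -0.97. The ratio of Pparg to Ppard was 37.8 and 39.7 in SI-ILC2s, against 28 and 23.2 in WAT-ILC2s. Ppara, the fatty acid receptor gene of liver, had at most 0.109 RPKM in any library.

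Of 20 genes known to be induced by PPARs, 13 were tested, with a median change of -0.85. Of these 1 was SI-high (7.69%, against 17.9% of all tested genes), 9 were WAT-high (69.2%, against 29.6%) and 3 did not pass the test. The list was chosen with earlier results of these data known, so its share is descriptive only. With either WAT-ILC2 library left out, 10 of its genes were tested, so some entered the test only through the WAT-ILC2 libraries. Cd36, the fatty acid translocase gene, had 1.05 and 0.932 RPKM in SI-ILC2s, against 13 and 13.9 RPKM in WAT-ILC2s (log2 change -2.86, adjusted p = 1.6e-04). Fabp4, which encodes a fatty acid carrier of adipocytes, endothelium and macrophages, had 0.257 and 0.172 RPKM in SI-ILC2s, against 4.32 and 3.43 RPKM in WAT-ILC2s (log2 change -2.00, adjusted p = 3.6e-04). Fabp4 is 1 of those genes, so its direction was fixed by the filter. Pnpla2, the triglyceride lipase gene, had 13.7 and 16.4 RPKM in SI-ILC2s, against 33.6 and 35 RPKM in WAT-ILC2s (log2 change -1.14, adjusted p = 0.002). All 3 genes differ by more than Pparg itself does. Plin2, which coats lipid droplets, was the member of the list that went the other way, with 35.9 and 34.3 RPKM in SI-ILC2s, against 19.8 and 19.4 RPKM in WAT-ILC2s (log2 change 0.81, adjusted p = 0.0042).

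Markers of other cells differed between the tissues in both directions, and their part in the differences of Pparg and its target list was not tested. The summed level of 10 adipocyte genes was 0.945 to 1.46 RPKM in SI-ILC2s and 7.3 to 7.55 RPKM in WAT-ILC2s. In WAT-ILC2s most of it came from Fabp4 and Aqp7, the 2 adipocyte genes that passed the filter, while Adipoq, Plin1 and Lep, which define adipocytes, stayed at or below 0.179 RPKM in every library. These low genes overlapped between the tissues, as did Cidec and Lipe. Cfd, Retn and Pck1, also under the filter, were higher in both WAT-ILC2 libraries. Cfd had 0.0142 and 0 RPKM in SI-ILC2s, against 0.351 and 0.296 RPKM in WAT-ILC2s. The sum of 12 macrophage and dendritic cell genes was 3.47 to 5.58 RPKM in SI-ILC2s and 9.37 to 12.1 RPKM in WAT-ILC2s. Of these genes 3 were tested, and Lyz2 and Zbtb46 were WAT-high. Fcgr1 and Mrc1 stayed at or below 0.0967 RPKM, while the macrophage gene Adgre1 had 0.0868 and 0.0316 RPKM in SI-ILC2s, against 0.356 and 0.689 RPKM in WAT-ILC2s. The sum of 8 fibroblast genes was 0.603 to 0.696 RPKM in SI-ILC2s and 4.73 to 10 RPKM in WAT-ILC2s, with both tested genes higher in WAT-ILC2s and Pdgfra at or below 0.0796 RPKM. Under the filter, Col1a1, Col1a2, Lum and Dpt were also higher in both WAT-ILC2 libraries, while Pdgfra and Pi16 overlapped. The sum of 8 endothelial genes overlapped, at 5 to 8.14 RPKM in SI-ILC2s and 6.65 to 10.6 RPKM in WAT-ILC2s, but its genes went in both directions. Pecam1 was SI-high, with 3.88 and 4.49 RPKM in SI-ILC2s, against 2.04 and 2.97 RPKM in WAT-ILC2s. Cdh5, Kdr, Tek, Vwf and Emcn, all under the filter, were higher in both WAT-ILC2 libraries. Cldn5 and Egfl7 overlapped. The sum of 10 granulocyte and mast cell genes was 1.12 to 1.3 RPKM in SI-ILC2s and 2.24 to 2.95 RPKM in WAT-ILC2s, and its 1 tested gene, Cpa3, was WAT-high. Other lists were higher in SI-ILC2s. The sum of 6 B and plasma cell genes was 18.9 to 24.7 RPKM in SI-ILC2s and 2.61 to 3.15 RPKM in WAT-ILC2s, with both tested genes, Cd79b and Jchain, SI-high and Ms4a1 at or below 0.0496 RPKM. The sum of 6 NK cell and ILC1 genes was 8.19 to 8.28 RPKM in SI-ILC2s and 0.588 to 0.93 RPKM in WAT-ILC2s, and its 1 tested gene, Gzmb, was SI-high. The sum of 5 ILC3 genes was 2.87 to 4.85 RPKM in SI-ILC2s and 0.393 to 0.471 RPKM in WAT-ILC2s, and its 1 tested gene, Il22, was SI-high. Of the tested marker genes, Gzmb, Il22 and Jchain entered the test only through the SI-ILC2 libraries. Fabp4, Aqp7, Lyz2, Cpa3 and the fibroblast genes Col3a1 and Dcn entered it only through the WAT-ILC2 libraries. The direction of these calls was fixed by the filter, so they add nothing to the sums.

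Of the liver X receptors, Nr1h2 was expressed and Nr1h3 stayed under 1 RPKM in every library. Nr1h2 (chromosome 7, 44549616 to 44553951, minus strand), the gene of the ubiquitous receptor LXR-beta, had 22.4 and 25.5 RPKM in SI-ILC2s, against 27.8 and 32.4 RPKM in WAT-ILC2s. The WAT-ILC2 libraries are higher and the groups do not overlap. The change of -0.32 ± 0.15 (SE) had a 95% interval of -0.69 to 0.05 and did not pass the test (adjusted p = 0.13). With the replicate block in limma, a pairing the labels do not state, the adjusted p was 0.0021. Nr1h3 (chromosome 2, 91184061 to 91202834, minus strand), the gene of LXR-alpha, which is abundant in liver and macrophages, had 0.0937 and 0.232 RPKM in SI-ILC2s, against 0.121 and 0.376 RPKM in WAT-ILC2s. The groups overlap, and these values rest on an estimated 17 to 62 reads a library. With no filter on low values Nr1h3 did not pass the test (adjusted p = 0.65). Nr1h3 also shares 34 exon bases with Gm13783 on the same strand.

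Genes known to be induced by liver X receptors went in both directions. Of 16 such genes 10 were tested, 3 were SI-high (30%, against 17.9% of all tested genes), 5 were WAT-high (50%, against 29.6%) and 2 did not pass the test, with a median change of -0.33. As with the other lists, these genes were chosen with earlier results of these data known. Lpcat3, which encodes a phospholipid remodelling enzyme, had 13.8 and 13.1 RPKM in SI-ILC2s, against 29.8 and 29.8 RPKM in WAT-ILC2s (log2 change -1.09, adjusted p = 0.0016). Mylip, whose product degrades the LDL receptor, had 13.7 and 12 RPKM in SI-ILC2s, against 28.6 and 25.7 RPKM in WAT-ILC2s (log2 change -1.02, adjusted p = 0.0027). Apoe, the apolipoprotein E gene, was the third of this group by change among genes with a mean of at least 2 RPKM. It had 1.97 and 1.1 RPKM in SI-ILC2s, against 2.87 and 4.42 RPKM in WAT-ILC2s (log2 change -0.88, adjusted p = 0.024). The other WAT-high genes of the list were Pltp (log2 change -0.89), which is under that mean, and Abca7 (log2 change -0.76). Pltp entered the test only through the WAT-ILC2 libraries. Pltp shares exon bases with Ctsa on the opposite strand.

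Smpdl3a, a phosphodiesterase gene, was on the opposite side with 74.5 and 69.1 RPKM in SI-ILC2s, against 55.3 and 46.6 RPKM in WAT-ILC2s (log2 change 0.49, adjusted p = 0.041). The other genes higher in SI-ILC2s were Scd2 and Arl4c, both under 2 RPKM on average and named after their values were seen. Both entered the test only through the SI-ILC2 libraries. Abca1 and Abcg1, the cholesterol efflux pump genes that are the usual readout of these receptors, did not pass the filter. Abca1 had 0.273 and 0.384 RPKM in SI-ILC2s, against 0.487 and 0.546 RPKM in WAT-ILC2s, and Abcg1 had 0.909 and 0.793 RPKM in SI-ILC2s, against 1.01 and 0.859 RPKM in WAT-ILC2s. Lpcat3 shares exon bases with Emg1 on the opposite strand. Without SI-ILC2 replicate 1 or SI-ILC2 replicate 2, 0 genes of this list were higher in SI-ILC2s, and without WAT-ILC2 replicate 2 the count was 2.

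The vitamin D receptor and oestrogen receptor alpha genes stayed under 1 RPKM in ILC2s of both tissues. Vdr (chromosome 15, 97854425 to 97910630, minus strand) had 0.102 and 0.18 RPKM in SI-ILC2s, against 0.209 and 0.0826 RPKM in WAT-ILC2s. Esr1 (chromosome 10, 4611593 to 5005614, plus strand) had 0.183 and 0.0737 RPKM in SI-ILC2s, against 0.0517 and 0.0819 RPKM in WAT-ILC2s. In both genes the groups overlap, and the libraries of 1 tissue differ by more than the tissues do. The values rest on an estimated 31 to 66 reads a library for Vdr and 39 to 190 for Esr1. With no filter on low values neither passed the test, with adjusted p-values of 0.98 for Vdr and 0.44 for Esr1. Cyp24a1, the vitamin D catabolic enzyme gene that is the most inducible vitamin D target, had at most 0.0706 RPKM, and the oestrogen targets Greb1 and Pgr had at most 0.0797 RPKM and 0.0573 RPKM. The second oestrogen receptor gene, Esr2, had at most 0.083 RPKM.

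**Figure D3:**
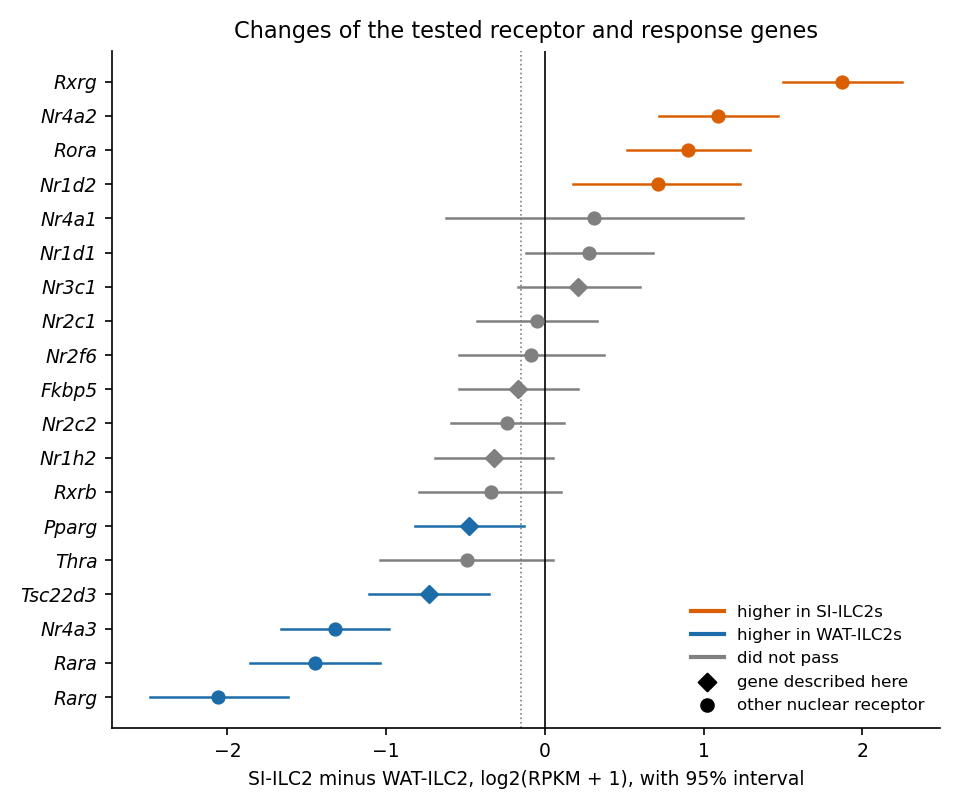
Log2 change (SI-ILC2 minus WAT-ILC2, log2(RPKM + 1)) with its 95% interval for the 5 tested members (diamonds) and 14 other tested nuclear receptor genes (circles), with a dotted line at the median of all tested genes (-0.15). Pparg (-0.48) and Tsc22d3 (-0.73) lie left of 0 with intervals that leave it out, and the retinoid receptor genes Rxrg (1.87) and Rarg (-2.06) lie at the ends.

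The RXR genes, whose products pair with PPARs, liver X receptors and the vitamin D receptor, differed in their make-up between the tissues. Rxrg, the RXR gene of skeletal muscle and brain, had 8.11 and 7.21 RPKM in SI-ILC2s, against 1.55 and 1.19 RPKM in WAT-ILC2s (log2 change 1.87, adjusted p = 5.3e-04). Rxrb, the ubiquitous form, had 6.22 and 5.38 RPKM in SI-ILC2s, against 8.97 and 6.43 RPKM in WAT-ILC2s (adjusted p = 0.17). Rxra, the form of liver and skin, had 0.146 and 0.254 RPKM in SI-ILC2s, against 0.24 and 0.487 RPKM in WAT-ILC2s, under the filter. The ratio of Rxrg to Rxrb was 1.3 and 1.34 in SI-ILC2s, against 0.173 and 0.185 in WAT-ILC2s, so Rxrg was the more abundant form in SI-ILC2s and Rxrb in WAT-ILC2s. Pparg exceeded Rxrb 3.4 and 3.44 times in SI-ILC2s, against 3.04 and 4.43 times in WAT-ILC2s, which overlap. It exceeded Rxrg 2.61 and 2.57 times in SI-ILC2s, against 17.6 and 24 times in WAT-ILC2s, with no overlap. The RXR genes summed to 14.5 and 12.8 RPKM in SI-ILC2s, against 10.8 and 8.11 RPKM in WAT-ILC2s. These ratios and sums were not tested.

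**Figure D4:**
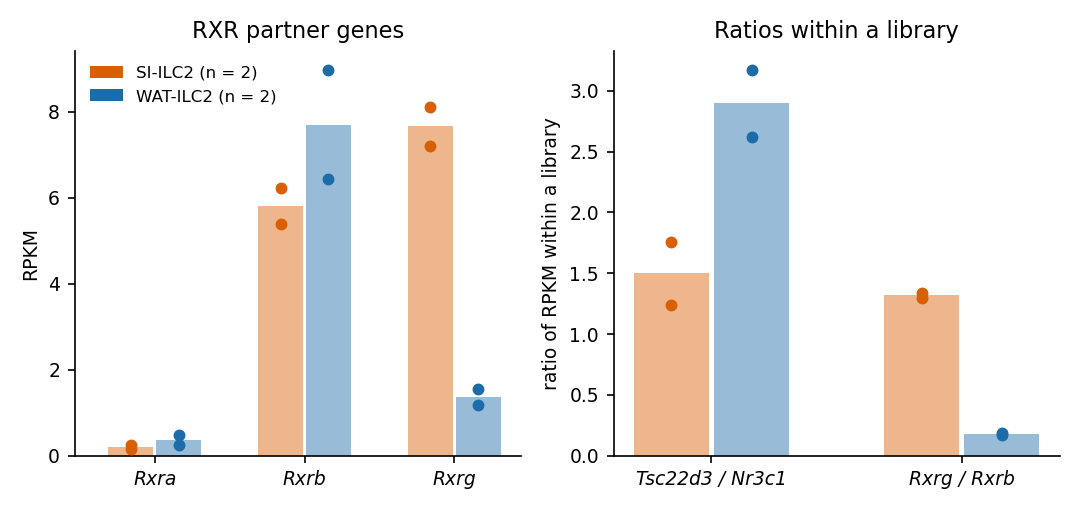
Left, RPKM of the 3 RXR genes; right, the ratio of Tsc22d3 to Nr3c1 and of Rxrg to Rxrb within each library; SI-ILC2s in orange and WAT-ILC2s in blue, bars at the mean and points for the libraries (n = 2 each). Rxrg averages 7.66 RPKM in SI-ILC2s and 1.37 RPKM in WAT-ILC2s, and Rxrb averages 5.8 RPKM in SI-ILC2s and 7.7 RPKM in WAT-ILC2s.

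Within the whole nuclear receptor family the members were a minor part of the RNA. The 49 receptor genes summed to 456 and 545 RPKM in SI-ILC2s, against 421 and 532 RPKM in WAT-ILC2s. The 7 member receptors held 17.8% and 16.2% of this in SI-ILC2s, against 21% and 18.7% in WAT-ILC2s. The orphan receptor genes Nr4a1, Nr4a2, Nr4a3 and Rora held the first 4 places in each library and Nr3c1 the fifth. Of the 49 genes, 29 stayed under 1 RPKM in all 4 libraries. Among the 42 receptors outside the members 15 were tested, with a median change of -0.05. Of these 5 were SI-high (33.3%, against 17.9% of all tested genes) and 3 WAT-high (20%, against 29.6%).

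The SI-high genes of this family included Rxrg, Nr4a2, Rora and Nr1d2. Nr4a2, an orphan receptor gene induced on cell activation, had 74.2 and 82.8 RPKM in SI-ILC2s, against 33.5 and 39.1 RPKM in WAT-ILC2s (log2 change 1.09, adjusted p = 0.0026). Toward WAT-ILC2s the genes were Rarg, Rara and Nr4a3. Rarg, a retinoic acid receptor gene, had 0.479 and 0.556 RPKM in SI-ILC2s, against 4.42 and 6.34 RPKM in WAT-ILC2s (log2 change -2.06, adjusted p = 5.9e-04). Rarg entered the test only through the WAT-ILC2 libraries.

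Genes of the coregulators that nuclear receptors recruit were expressed at low to moderate levels. Of 12 tested, 1 was SI-high (8.33%, against 17.9% of all tested genes) and 4 were WAT-high (33.3%, against 29.6%). The median change was -0.26. Nrip1, which encodes the corepressor RIP140, had 37.3 and 38.4 RPKM in SI-ILC2s, against 16 and 16.5 RPKM in WAT-ILC2s (log2 change 1.17, adjusted p = 0.0012). Tbl1xr1, a subunit gene of the NCoR corepressor complex, had 2.18 and 2.8 RPKM in SI-ILC2s, against 5.78 and 6.48 RPKM in WAT-ILC2s (log2 change -1.04, adjusted p = 0.0034). Ncoa1, the gene of the coactivator SRC-1, had 2.05 and 2.71 RPKM in SI-ILC2s, against 4.8 and 6.75 RPKM in WAT-ILC2s (ratio 0.412, adjusted p = 0.008). Ncor1 and Ncoa3 were the others higher in WAT-ILC2s, and Ncoa1, Ncoa3 and Ncor1 share exon bases with genes on the opposite strand. Median-of-ratios scaling gave 2 SI-high and 2 WAT-high coregulators. The numbers were 1 and 3 with quantile normalization and 1 and 6 after rescaling to equal sums. They were 1 and 2 without SI-ILC2 replicate 1, without SI-ILC2 replicate 2 and without WAT-ILC2 replicate 1.

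The genes most like each tested member were those with the smallest Euclidean distance of log2(RPKM + 1) over the 4 libraries. Eif3c (0.182) and Csnk1a1 (0.226) lay nearest to Nr3c1, and Tnfrsf25 (0.234) and Tapbpl (0.263) to Pparg. Ssbp3 (0.146) and Glb1 (0.161) lay nearest to Nr1h2, and Kdsr (0.117) and the coactivator gene Crebbp (0.128) to Fkbp5. Tsc22d3 had more distant neighbours, Irf1 (0.314) and Aes (0.373). With 2 tissues and 4 libraries, this likeness is mostly one of level.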

How the data were processed

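RNA was sequenced from 4 libraries of sorted ILC2s, 2 per tissue, and the authors deposited RPKM values per gene and library, with replicates not pooled. Per the submitters' processing notes, the tools were STAR 2.6.0 and featureCounts 1.6.0, with GRCm38 (mm10). The sources used here state no annotation, strand setting or treatment of multi-mapped reads. RPKM is scaled to length and library size only, so abundant transcripts lower all others.

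Groups came from the sample titles. Genes with at least 1 RPKM in at least 2 libraries were compared as log2(RPKM + 1) with limma 3.58.1 in R 4.3.3 (variance trend, no covariate), with Benjamini-Hochberg adjustment at 0.05. The steps were tested on simulated data. The members and gene lists were chosen with earlier results of these data known. Lists are described by counts and medians, with no set test. Named genes were all members, up to 3 called genes per direction of each list with the largest change and a mean of at least 2 RPKM, genes a sentence on a member turns on (such as Hsd11b1, Per1, Klf9, Abca1 and Abcg1), and the 2 nearest genes per member; other genes that complete a counted group were named after their values were seen. Of the listed genes 2 were found under older symbols and 2 were not used here, and 1 counted receptor gene is not reported here by name. Read depth was estimated from value steps in single-exon genes, where 86% to 88.4% of low values fell within 0.1 of a whole read, and read numbers of a gene use GENCODE M21 exon lengths, so they are estimates. The squared difference between same-tissue libraries averaged 52 (SI) and 70 (WAT) times the counting variance of read pairs over 7049 genes. No library was therefore treated as a copy. Coordinates and exon overlaps come from GENCODE M21 (GRCm38). Tables and plots were made in Python 3.11.15 (numpy 2.4.6, pandas 2.3.3, matplotlib 3.10.9). The alternatives were other pseudocounts, filters and scalings, limma options, a replicate block and leaving out each library.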

Additional observations from a re-analysis of the deposited data

How the results depend on the processing

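The direction of change of the 5 tested members was the same under each of the alternatives run. Tsc22d3 passed the test under 13 of 14 alternatives, and leaving out 1 library gave changes of -0.86 to -0.61. Pparg passed under 8 of 14, with changes of -0.57 to -0.38 on leaving out 1 library, -0.48 with no filter and -0.29 with median-of-ratios scaling. Called members higher in WAT-ILC2s numbered 1 with no filter, 1 with median-of-ratios scaling and 0 to 1 on leaving out 1 library. With the filter at 5 RPKM, 899 genes were SI-high and 1182 WAT-high, Fkbp5 was not tested, and the counts were 1 and 3 for LXR targets and 1 for steroid metabolism in WAT-ILC2s. With no filter, 1 glucocorticoid target and 1 steroid metabolism gene were higher in SI-ILC2s, and 5 other nuclear receptors in WAT-ILC2s. With median-of-ratios scaling, 5 chaperones, 2 coregulators and 1 glucocorticoid target were higher in SI-ILC2s, and 2 coregulators in WAT-ILC2s. Leaving out 1 library gave 745 to 1549 SI-high and 1439 to 1995 WAT-high genes, and, for SI-ILC2s, 1 to 2 chaperones, 0 to 1 glucocorticoid targets and 0 to 3 LXR targets, and for WAT-ILC2s 1 to 2 chaperones, 2 to 3 coregulators, 6 to 9 PPAR targets and 1 to 3 steroid metabolism genes. Fewer genes or samples are tested in the filter and leave-one-out settings by construction, and the cause of the other moves was not tested.

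The replicate numbers in the titles are not said to mark a shared animal or day. Deviations from the tissue means correlated between same-numbered libraries (r = 0.57 across 8230 genes, which are not independent). With a replicate block, 2271 genes were SI-high and 3430 WAT-high, and Nr3c1 (0.21, adjusted p = 0.036) and Nr1h2 (-0.32, adjusted p = 0.0021) also passed, so 1 member was SI-high and 3 WAT-high. The block also gave 5 chaperones, 2 coregulators and 1 glucocorticoid target higher in SI-ILC2s, and 5 other nuclear receptors, 3 chaperones and 6 coregulators higher in WAT-ILC2s. Esr1, Vdr and Nr1h3 rest on few estimated reads, and a pseudocount of 0.1 moved the log2 values of Esr1 to 0.42 and of Nr1h3 to -0.36.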

Other observations

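Some genes outside the steroid and metabolic receptors stood out within the lists. Xbp1, a transcription factor gene of the unfolded protein response that is also an oestrogen target in breast cells, had 47.6 and 46.2 RPKM in SI-ILC2s, against 23 and 19.1 RPKM in WAT-ILC2s (log2 change 1.13, adjusted p = 0.0022). Thbd, the thrombomodulin gene and a vitamin D target in monocytes, had 0.488 and 0.666 RPKM in SI-ILC2s, against 1.91 and 1.57 RPKM in WAT-ILC2s (log2 change -0.80, adjusted p = 0.0044). Thbd entered the test only through the WAT-ILC2 libraries. Hsd17b4, a peroxisomal enzyme gene of fatty acid oxidation and oestradiol inactivation, had 5.36 and 4.89 RPKM in SI-ILC2s, against 11.5 and 12.3 RPKM in WAT-ILC2s (log2 change -1.08, adjusted p = 0.0019). Igfbp4, from the oestrogen list, had 0.884 and 14.8 RPKM in SI-ILC2s, against 11.9 and 12.6 RPKM in WAT-ILC2s, so 1 library of 4 stood apart and the change did not pass the test (adjusted p = 0.26). These genes were picked after their values were seen.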
